A study of Mus musculus with 6 samples.

Results

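The 7 mouse genes that set the phosphorylation of translation initiation factor eIF2 were followed in RNA of pancreatic islets, namely the 4 kinases Eif2ak1, Eif2ak2, Eif2ak3 and Eif2ak4, the phosphatase subunits Ppp1r15a and Ppp1r15b, and the substrate Eif2s1. All 7 were found by symbol among the 55401 identifiers of the count table, and all 7 passed the filter on low counts with 14212 genes in all. They were chosen by their role in the pathway with the values of this same comparison already known, those of Eif2ak3 above all. What follows is therefore a description of these 7 genes, and a p-value gives only a gene's place in the fit over all genes.

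The 3 libraries labelled KO came from male C57BL/6 mice of about 20 weeks with the genotype Pdgfra fl/fl Pdx1-Cre+, and 3 control libraries from male mice of that strain and age with the genotype Pdgfra fl/fl Pdx1-Cre-. Both groups thus carried floxed Pdgfra, the gene of a platelet-derived growth factor receptor, and Cre was driven by the promoter of Pdx1, which is active in the pancreatic lineage and so in acinar and duct precursors as well as in islet cells. No mice with Cre and unfloxed Pdgfra are among the samples, so the deletion of Pdgfra, Cre itself and the transgene that carries it cannot be told apart. Titles number the mice of each group but do not state 1 animal per library, and the errors therefore measure the spread between these libraries, which may be technical. Pdgfra had 93, 25 and 125 counts in KO 1, 2 and 3, and 42, 88 and 116 counts in controls 1, 2 and 3, so the groups overlapped (log2 fold change -0.26, SE 0.34, edgeR adjusted p = 0.869). Counts sum all exons, so this is no check of the genotype.

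Translation starts with eIF2, which brings the initiator tRNA to the ribosome. Separate kinases phosphorylate its alpha subunit, each on its own signal, and phosphorylated eIF2 blocks its own recycling factor eIF2B, which lowers protein synthesis while a few messages, such as that of the transcription factor ATF4, are translated better. Phosphatase 1 removes the phosphate when guided by PPP1R15A or PPP1R15B. Beta cells make large amounts of proinsulin in the endoplasmic reticulum, and loss of the kinase PERK, the product of Eif2ak3, causes early diabetes in mice and in people. These data count transcripts and hold no measure of kinase activity or of eIF2 phosphorylation.

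The libraries held from 18247741 to 25039394 counts in KO and from 15026094 to 25299689 in controls. The preparations were labelled islet tissue and beta cells, and all 10 beta-cell markers (Ins1, Ins2, Pdx1 and others) had counts, with summed levels of 104382 to 148019 CPM (counts per 1000000, with library sizes scaled by TMM factors) in KO and 96289 to 125607 in controls. All 19 acinar markers, mostly digestive enzymes, had counts too, and their summed level was 305956, 321826 and 165274 CPM in KO 1, 2 and 3, and 488291, 296760 and 189736 CPM in controls 1, 2 and 3. All 6 fibroblast markers had counts, with a sum of 43.2 CPM in KO 2, 168 and 219 in KO 1 and 3, and 141 to 281 in controls. The ribosomal RNA locus CT010467.1 stood at 52225, 143835 and 175943 CPM in KO 1, 2 and 3, and at 31435 to 52851 CPM in controls. In such bulk RNA, fewer cells of a type and less RNA per cell cannot be told apart.

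Eif2ak3 was the member with the largest difference between the groups. Its level was higher in each KO library than in any control, while the other 6 members had overlapping groups and fold changes between 0.898 and 1.14. None of the 7 passed the test over all genes (edgeR quasi-likelihood test, adjusted p from 0.537 to 0.956), where 10 of the 14212 genes tested, or 0.0704%, did. At an unadjusted p under 0.05 there was 1 member of 7, against 7.37% of all genes, and the groups did not overlap in 1 of 7, against 13.9% of all genes. A count of 1 in 7 is too small to set the members apart from that background.

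**Figure D1:**
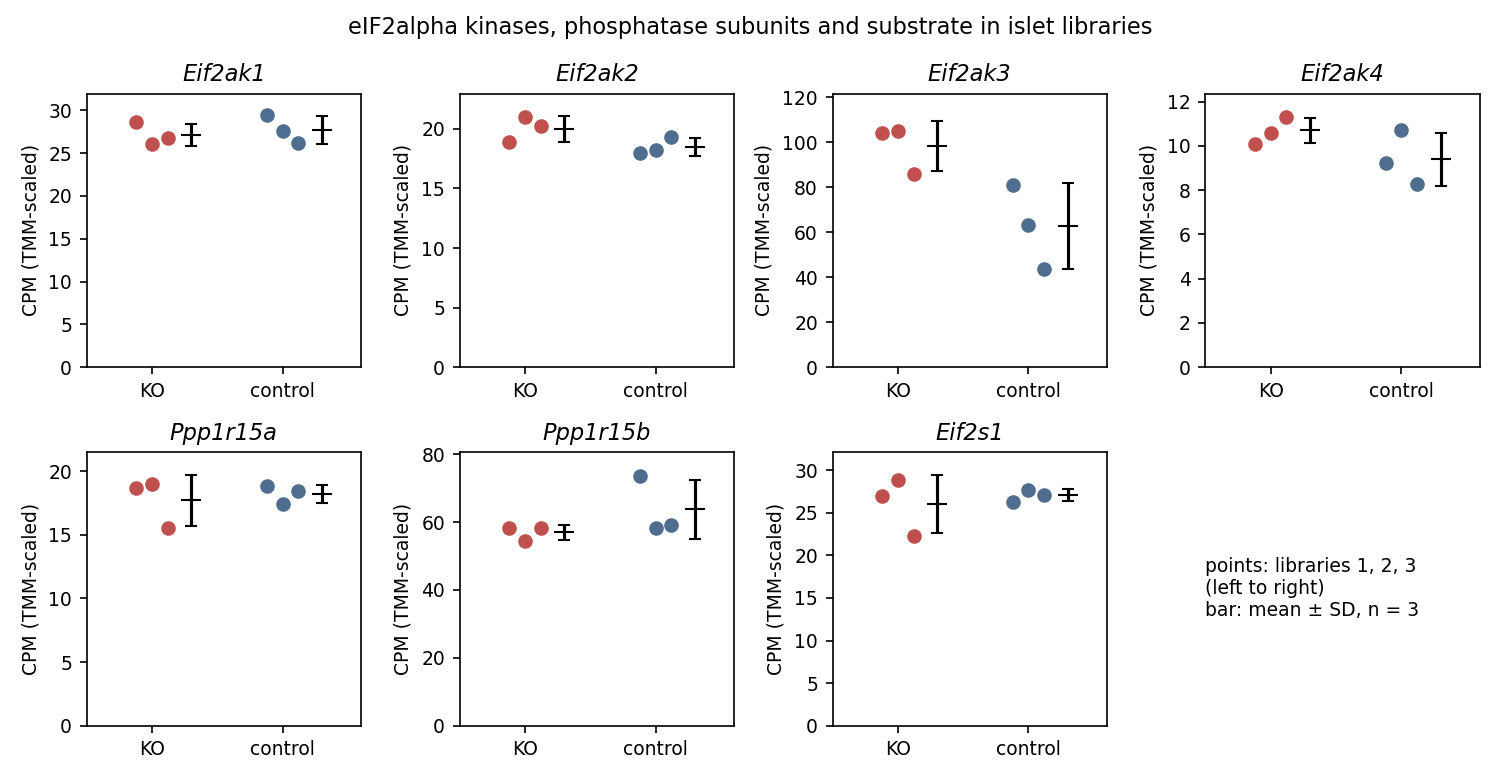
Level of each of the 7 genes in every library, as CPM scaled by TMM factors (vertical axes start at 0), with KO libraries left and controls right of each panel. Points are libraries 1, 2 and 3 from left to right, and the bar beside them is the mean ± SD (n = 3). In Eif2ak3 alone among the 7 panels the KO points, 85.7 to 105 CPM, all lie above the control points, 43.8 to 81.0 CPM.

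Eif2ak3 encodes PERK, a kinase in the membrane of the endoplasmic reticulum that is switched on when unfolded proteins build up in its lumen. The gene (ENSMUSG00000031668.14) lies on the plus strand of chromosome 6, from 70844515 to 70905245 (GRCm38), with 6026 bases of exons. Gm43292, on the opposite strand, shares 8.05% of the exon bases of Eif2ak3. Gm43292 had 3, 2 and 5 counts in KO 1, 2 and 3, and 0, 1 and 2 in controls 1, 2 and 3. Eif2ak3 had 2597, 1687 and 2251 counts in KO 1, 2 and 3, against 1010, 1086 and 1330 counts in controls 1, 2 and 3. As CPM these were 104, 105 and 85.7 in KO and 81.0, 63.3 and 43.8 in controls. All 3 KO libraries stood above all 3 controls, and the controls were spread more widely than the KO libraries. Means were 98.3 ± 11 CPM in KO and 62.7 ± 19 CPM in controls (SD, n = 3 each). The KO minus control difference was 0.66 on the log2 scale (SE 0.20, 95% interval from 0.22 to 1.09, edgeR unadjusted p = 0.00795, adjusted p = 0.537), a ratio of 1.57 with an interval from 1.16 to 2.14. By p-value the gene stood at place 210 of 14212.

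The promoter of Eif2ak3 is printed because this kinase carries the difference and because CCAAT boxes, bound by the factor NF-Y, are part of the promoters of several genes that respond to stress of the endoplasmic reticulum. RefSeq's window for the gene runs from 250 bases before to 50 after the start site (GRCm38.p6, chr6:70844265-70844564, plus strand). Capitals mark CCAAT on either strand, so that the other strand's box reads ATTGG.
Eif2ak3: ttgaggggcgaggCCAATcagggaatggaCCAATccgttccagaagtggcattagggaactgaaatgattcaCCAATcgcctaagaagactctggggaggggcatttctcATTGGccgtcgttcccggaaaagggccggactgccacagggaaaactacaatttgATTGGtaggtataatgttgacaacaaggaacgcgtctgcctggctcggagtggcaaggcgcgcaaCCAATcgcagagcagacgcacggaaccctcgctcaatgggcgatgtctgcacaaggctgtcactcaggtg
The window held 6 boxes, which do not overlap each other, with first bases at positions -237, -221, -178, -140, -85 and -20, counted from 0 at the start site. Of the 32851 windows of 300 bases in the table, 37.4% held at least 1 box, and 0.0791% held as many as 6 or more. Of the other members, Eif2ak1 had 1 box, Eif2ak2, Eif2ak4, Ppp1r15a and Eif2s1 had 0, and Ppp1r15b was without a window. This is a description of letters, and binding was not measured here.

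Within each group the level of Eif2ak3 had the same order as the acinar content of the library. In KO the lowest library was KO 3 (85.7 CPM), which also had the lowest summed acinar level (165274 CPM), while KO 1 and KO 2 were close to each other in both. Among controls the order from control 1 through control 2 to control 3 was the same for Eif2ak3 (81.0, 63.3 and 43.8 CPM) and for the acinar sum (488291, 296760 and 189736 CPM). Total counts ran in the reverse order of Eif2ak3 within each group. They were 24316901, 18247741 and 25039394 in KO 1, 2 and 3, and 15026094, 16261331 and 25299689 in controls 1, 2 and 3. With so few libraries, acinar content and total counts cannot be told apart. KO 1 and control 2, with like acinar sums, had 104 and 63.3 CPM of Eif2ak3, and KO 3 and control 3 had 85.7 and 43.8 CPM. These pairs were unlike in ribosomal RNA, with 52225 CPM in KO 1 against 31435 in control 2. KO 3 had 175943 CPM of it against 37630 in control 3. With the log2 acinar sum as a covariate the difference for Eif2ak3 was 0.82 on the log2 scale (SE 0.10, adjusted p = 0.00863 in edgeR). The gene was then among the 44 called, 0.310% of those tested. The other 6 members had adjusted p from 0.782 to 0.997 in that fit. The marker sum was read from the same 6 libraries, and that fit leaves 3 residual degrees of freedom. What part acinar RNA or total counts had in the difference was not tested.

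**Figure D2:**
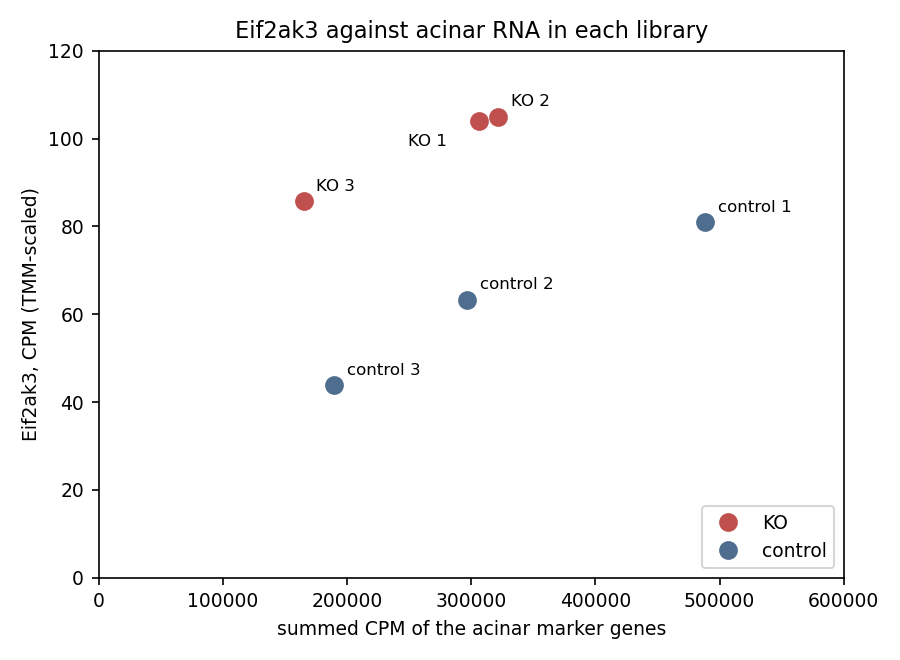
Eif2ak3 level (CPM scaled by TMM factors, vertical axis) against the summed CPM of 19 acinar marker genes (horizontal axis), with 1 point per library, KO in red and control in blue. Eif2ak3 is higher where the acinar sum is higher within each group, and total counts, not drawn, ran in the reverse order. KO 1 and control 2, with like acinar sums, stand at 104 and 63.3 CPM, and the cause of that gap was not tested.

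The call thus depended on the fit. Without the filter on low counts, where 26297 genes were tested and 1.14% were called, the difference for Eif2ak3 was 0.65 on the log2 scale (SE 0.12, edgeR adjusted p = 3.05e-05). Leaving out 1 library at a time gave log2 fold changes from 0.45 (without control 3, edgeR adjusted p = 0.557) to 0.88 (without control 1, adjusted p = 0.389). DESeq2 gave 0.65 (SE 0.20, adjusted p = 0.169), and with the ribosomal RNA covariate the value was 0.64 (SE 0.32, edgeR adjusted p = 1.000). That covariate was higher in KO 2 and KO 3 than in any control, so it is partly confounded with genotype. Its fit leaves 3 residual degrees of freedom.

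Eif2ak3 supplied the largest share of kinase reads in every library. It took 64.3% (95% Wilson interval 62.9 to 65.8) of the counts of the 4 kinase genes in KO 1, 64.6% (62.8 to 66.4) in KO 2 and 59.6% (58.0 to 61.1) in KO 3. In controls 1, 2 and 3 it took 58.9% (56.5 to 61.2), 52.8% (50.7 to 55.0) and 44.9% (43.1 to 46.7). The shares of KO 3 and control 1 had overlapping intervals, and control 3 stood lowest. These intervals cover counting error only. Eif2ak1 took 16.0 to 18.6% in KO and 21.3 to 26.8% in controls, and Eif2ak4 took 6.27 to 7.83% in KO and 6.71 to 8.95% in controls. For Eif2ak2 the share was 11.7 to 14.0% in KO and 13.1 to 19.8% in controls. Shares of a common total depend on each other, so a larger Eif2ak3 share lowers the rest. The CPM of Eif2ak1 overlapped between the groups (log2 fold change -0.02). Per base of exon, the ratio of Eif2ak3 to Eif2ak1 reads, which needs no scaling between libraries, was 3.42, 3.80 and 3.02 in KO 1, 2 and 3, against 2.60, 2.16 and 1.58 in controls 1, 2 and 3.

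**Figure D3:**
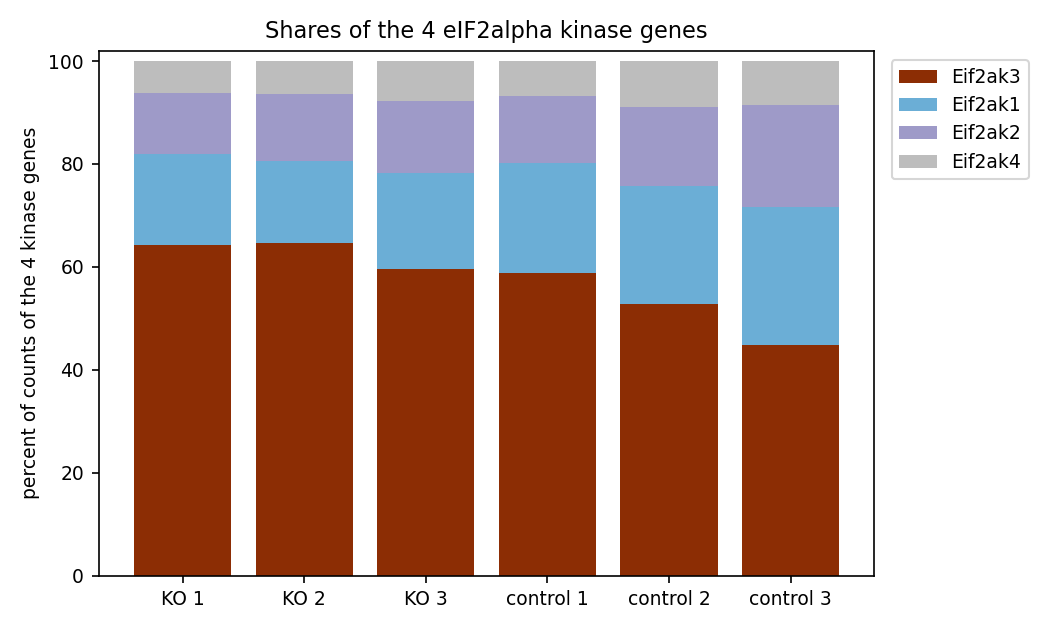
Percent of the counts of the 4 kinase genes taken by each (vertical axis from 0), with 1 bar per library, KO left and control right. Counts are not divided by gene length. Eif2ak3 takes 59.6 to 64.6% in KO libraries and 44.9 to 58.9% in controls, and Eif2ak1 is the next in every library.

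The neighbours of Eif2ak3 on chromosome 6 included the gene with the smallest p-value in the whole table. Foxi3, which encodes a forkhead transcription factor, starts 51286 bases beyond the end of Eif2ak3, on the same strand. It had 155, 106 and 170 counts in KO 1, 2 and 3 and 0 counts in each control (at least 128-fold higher in KO, taking 3 counts for the controls together as the floor, edgeR adjusted p = 9.07e-04). Between the 2 genes lies Tex37, a testis-expressed gene on the minus strand, 7842 bases beyond the end of Eif2ak3. Tex37 had 5, 6 and 12 counts in KO 1, 2 and 3 and 0 counts in each control, at least 6.84-fold higher by that floor. It did not pass the filter on low counts, and in the fit without the filter its adjusted p was 0.00726 (edgeR). In that fit the immunoglobulin gene Igkc, whose groups overlapped, was called as well (edgeR adjusted p = 1.18e-08). Beyond the end of Eif2ak3, Tex37 and Foxi3 are the nearest genes with any counts, and in all 3 genes every KO library stood above every control. Where in the genome the Cre transgene lies is not given in the sources used here, and any effect of its site on these genes cannot be told apart from that of the Pdgfra deletion.

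In the 5 other genes tested around Eif2ak3 the groups overlapped. Rpia, the pentose phosphate enzyme ribose 5-phosphate isomerase, ends 52283 bases before Eif2ak3 and had 19.7, 17.5 and 18.6 CPM in KO 1, 2 and 3, against 15.3, 16.7 and 19.1 CPM in controls 1, 2 and 3 (log2 fold change 0.12, SE 0.11, edgeR adjusted p = 0.824). Thnsl2, 222921 bases beyond the end of Eif2ak3, had 5.75 to 8.09 CPM in KO and 6.18 to 9.55 in controls (log2 fold change -0.07, SE 0.20, edgeR adjusted p = 0.949). Of the 6 genes tested within 500000 bases of Eif2ak3, 2 had an unadjusted p under 0.05, Foxi3 and Igkc, and in the main fit Foxi3 alone passed the adjusted threshold. Within 500000 bases of the other members, 0 of 17 (Eif2ak1), 14 (Eif2ak2), 13 (Eif2ak4), 40 (Ppp1r15a), 11 (Ppp1r15b) and 11 (Eif2s1) tested neighbours passed it. In that order, 1, 0, 0, 4, 1 and 1 of them had an unadjusted p under 0.05. Over all genes tested 0.0704% passed the adjusted threshold and 7.37% had an unadjusted p under 0.05. Windows this small would mostly hold 0 calls at that share, so these counts of 0 set no window apart. These windows were set after the values were seen.

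**Figure D4:**
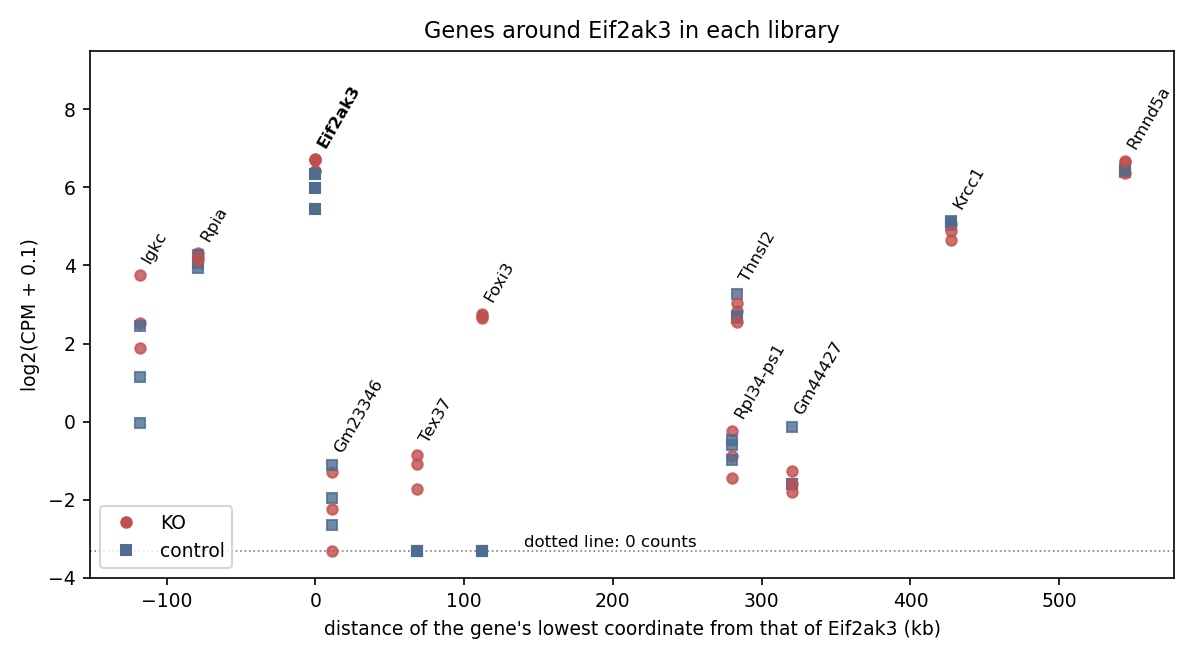
Levels of Eif2ak3 and of genes within 500000 bases of it, as log2(CPM + 0.1) in every library (vertical axis), against the distance in kilobases between the lowest coordinates of the gene and of Eif2ak3 (horizontal axis). Red circles are KO and blue squares control libraries. Genes with at least 20 counts in all are drawn, and Tex37 among them. Tex37 and Foxi3 lie on the dotted line of 0 counts in all 3 controls and above it in all 3 KO libraries, and Rpia and Thnsl2 on either side overlap.

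Eif2ak1 encodes HRI, the kinase that senses lack of heme and stress relayed from mitochondria. The gene (ENSMUSG00000029613.15) lies on chromosome 5, from 143817788 to 143904251. Its level was 28.6, 26.1 and 26.7 CPM in KO 1, 2 and 3 and 29.4, 27.6 and 26.2 CPM in controls 1, 2 and 3. The groups overlapped almost fully, with a log2 difference of -0.02 (SE 0.09, 95% interval -0.23 to 0.18, edgeR adjusted p = 0.956), so that the interval holds ratios from 0.855 to 1.13. Aimp2, on the opposite strand with 60 to 142 counts per library, shares 8.59% of the exon bases of Eif2ak1. Whether counting used the strand is not given in the sources used here.

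Eif2ak2 encodes PKR, the kinase that binds double-stranded RNA and is itself induced by interferon. The gene (ENSMUSG00000024079.4) lies on the minus strand of chromosome 17, from 78852564 to 78882573. Levels were 18.9, 21.0 and 20.2 CPM in KO 1, 2 and 3, against 18.0, 18.2 and 19.3 CPM in controls 1, 2 and 3, with KO 1 inside the control range. The KO minus control difference was 0.11 on the log2 scale (SE 0.09, 95% interval from -0.10 to 0.32, edgeR adjusted p = 0.808), and it was 0.03 with the ribosomal RNA covariate. Its promoter window (chr17:78882523-78882822, minus strand, GRCm38.p6, RefSeq) is printed to show the letters GAAANNGAA of an interferon-stimulated response element, in capitals.
Eif2ak2: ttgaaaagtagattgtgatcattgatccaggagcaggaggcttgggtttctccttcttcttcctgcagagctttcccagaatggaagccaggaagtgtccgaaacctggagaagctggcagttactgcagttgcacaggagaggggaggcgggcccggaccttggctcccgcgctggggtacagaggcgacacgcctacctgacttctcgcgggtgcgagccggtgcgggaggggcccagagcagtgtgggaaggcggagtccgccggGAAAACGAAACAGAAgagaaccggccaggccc
The 2 matches overlap, with first bases at positions 18 and 24 from the start site. At least 1 match on either strand was held by 8.56% of all windows, and as many as 2 or more by 0.624%. Ppp1r15a and Eif2s1 held 1 match each, at positions -220 and -212. Of 17 tested genes induced by interferon, 16 had positive and 1 negative log2 fold changes, with a median of 0.07 against -0.01 over all genes tested, and 0 passed the test. Ifit1, an inhibitor of viral translation, had 2.93 to 6.05 CPM in KO and 1.44 to 3.96 CPM in controls (log2 fold change 0.48, SE 0.36, edgeR adjusted p = 0.788), and Ifit3, Oasl2 and Adar had log2 fold changes of 0.55, 0.31 and 0.12. Without control 1, 11 of 19 tested were negative and the median was -0.01, and with the ribosomal RNA covariate the median was 0.36.

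Eif2ak4 encodes GCN2, which is switched on by uncharged tRNA when amino acids are scarce. The gene (ENSMUSG00000005102.13) lies on chromosome 2, from 118388618 to 118475234, and was the lowest of the 7, with 115 to 296 counts per library. Levels were 10.1, 10.6 and 11.3 CPM in KO 1, 2 and 3, against 9.23, 10.7 and 8.27 CPM in controls 1, 2 and 3, so control 2 lay inside the KO range. The KO minus control difference was 0.19 on the log2 scale (SE 0.13, 95% interval from -0.11 to 0.48, edgeR adjusted p = 0.777), and it was 0.09 without control 3 and 0.29 without control 2. Among 10 genes that regulate or bind the kinases, 4 had positive and 6 negative log2 fold changes, with a median of -0.04, and 0 passed the test. Impact, an inhibitor of GCN2, had 37.0, 37.6 and 41.6 CPM in KO 1, 2 and 3, against 30.4, 35.2 and 34.9 CPM in controls 1, 2 and 3 (log2 fold change 0.21, SE 0.10, edgeR adjusted p = 0.701). Gcn1l1, whose product GCN1 couples GCN2 to ribosomes, had a log2 fold change of -0.10 (SE 0.13). Nck2, an adaptor of the NCK family, and Oma1, the mitochondrial protease upstream of HRI, had values of 0.16 and -0.17.

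Ppp1r15a encodes GADD34, the stress-induced subunit that guides phosphatase 1 to eIF2 and is a known target of ATF4. The gene (ENSMUSG00000040435.12) lies on the minus strand of chromosome 7, from 45522916 to 45526268. It stood at 18.7, 19.0 and 15.5 CPM in KO 1, 2 and 3, against 18.8, 17.4 and 18.4 CPM in controls 1, 2 and 3. KO 3 was the lowest library and the other 5 lay close together. The KO minus control difference was -0.04 on the log2 scale (SE 0.11, 95% interval from -0.28 to 0.20, edgeR adjusted p = 0.944), so the interval holds ratios from 0.822 to 1.15. Its promoter window (chr7:45526219-45526518, minus strand, GRCm38.p6, RefSeq) is printed to show the cyclic AMP response element TGACGTCA, a kind of site that factors of the ATF family can bind, in capitals.
Ppp1r15a: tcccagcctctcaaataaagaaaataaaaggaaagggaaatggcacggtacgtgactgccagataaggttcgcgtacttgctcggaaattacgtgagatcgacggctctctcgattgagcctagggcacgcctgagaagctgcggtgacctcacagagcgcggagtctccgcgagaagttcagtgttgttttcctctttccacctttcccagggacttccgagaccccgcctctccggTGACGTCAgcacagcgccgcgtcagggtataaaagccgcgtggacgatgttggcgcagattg
The 1 match begins at position -12 from the start site, and 1.79% of all windows held a match. Of the members, 6 of 7 were in the table of windows, and the other 5 of these held no TGACGTCA. Neither Ppp1r15a nor another of these 6 members held TGATGNAA, the core of the C/EBP-ATF element. It was held on either strand by 3.97% of all windows, Trib3 and Chac1 among them but not Ddit3 or Atf4.

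Ppp1r15b encodes CReP, the subunit that guides phosphatase 1 to eIF2 in unstressed cells. The gene (ENSMUSG00000046062.5) lies on chromosome 1, from 133131143 to 133139783. Its level was 58.3, 54.5 and 58.3 CPM in KO 1, 2 and 3, against 73.7, 58.1 and 59.2 CPM in controls 1, 2 and 3, with control 1 above the other 5 libraries. The KO minus control difference was -0.16 on the log2 scale (SE 0.11, 95% interval from -0.40 to 0.09, edgeR adjusted p = 0.777), and it was -0.04 without control 1. Gm26616, with 1 to 7 counts per library on the opposite strand, shares 11.4% of the exon bases of Ppp1r15b. Per base of exon, reads of Ppp1r15a relative to Ppp1r15b had a ratio of 0.611, 0.665 and 0.506 in KO 1, 2 and 3 and of 0.485, 0.571 and 0.594 in controls 1, 2 and 3, so the balance of the phosphatase subunits overlapped between the groups. The 3 catalytic subunits Ppp1ca, Ppp1cb and Ppp1cc had log2 fold changes of -0.05 (SE 0.12), -0.01 (SE 0.10) and -0.05 (SE 0.10), and 0 passed the test.

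Eif2s1 encodes eIF2 alpha, the subunit that the kinases phosphorylate. The gene (ENSMUSG00000021116.10) lies on chromosome 12, from 78861819 to 78887010. It had 27.0, 28.8 and 22.3 CPM in KO 1, 2 and 3, against 26.3, 27.7 and 27.1 CPM in controls 1, 2 and 3. KO 2 was the highest and KO 3 the lowest of all 6 libraries, and the KO minus control difference was -0.06 on the log2 scale (SE 0.11, 95% interval from -0.31 to 0.18, edgeR adjusted p = 0.908). The list of eIF2 and its recycling also took in Eif2a, Eif2d, Denr and Mcts1, and so not subunits of eIF2 and eIF2B alone. Its values were negative in 13 of 13 cases, with a median of -0.18 against -0.01 over all genes tested. Of all genes tested 52.2% were negative, and 0 of the 13 passed the test. Eif5, which stimulates GTP hydrolysis by eIF2, had 153, 158 and 140 CPM in KO 1, 2 and 3, against 182, 185 and 189 CPM in controls 1, 2 and 3 (log2 fold change -0.30, SE 0.10, edgeR adjusted p = 0.548). Eif2s2, the beta subunit, had 78.9, 70.5 and 51.2 CPM in KO 1, 2 and 3, against 107, 88.6 and 79.3 CPM in controls 1, 2 and 3 (log2 fold change -0.45, SE 0.17, edgeR adjusted p = 0.620), and the value was -0.29 without KO 3. Eif2b4, a subunit of eIF2B, and Eif2s3x, the gamma subunit, had log2 fold changes of -0.40 (SE 0.14) and -0.17 (SE 0.08). KO 3, with the most ribosomal RNA reads and the lowest acinar sum, was the lowest library for Eif2s2, Eif5 and Eif2b4. With the ribosomal RNA covariate 10 of the 13 were negative with a median of -0.15. The acinar covariate left 13 of 13 negative, also with a median of -0.15. Causes were not tested.

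Divided by exon length, the 7 genes kept nearly the same order in both groups. Mean levels in KO were 16.3 ± 1.8 CPM per kilobase for Eif2ak3, 10.2 ± 0.39 for Ppp1r15b, 6.04 ± 0.67 for Ppp1r15a, 5.25 ± 0.68 for Eif2s1, 4.79 ± 0.24 for Eif2ak1, 3.91 ± 0.21 for Eif2ak2 and 1.43 ± 0.076 for Eif2ak4 (SD, n = 3). In controls they were 10.4 ± 3.1 CPM per kilobase for Eif2ak3, 11.4 ± 1.6 for Ppp1r15b, 6.20 ± 0.24 for Ppp1r15a, 5.47 ± 0.14 for Eif2s1, 4.88 ± 0.28 for Eif2ak1, 3.62 ± 0.14 for Eif2ak2 and 1.26 ± 0.17 for Eif2ak4 (SD, n = 3). Eif2ak3 stood above Ppp1r15b in 3 of 3 KO libraries and in 2 of 3 controls, where control 3 had 7.27 CPM per kilobase of Eif2ak3 and 10.6 of Ppp1r15b. In KO the range of Eif2s1 overlapped those of Ppp1r15a and of Eif2ak1, and Eif2s1 was above Eif2ak1 in 2 of 3 libraries, while Ppp1r15a was above Eif2ak1 in 3 of 3.

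The genes whose profile was most like that of Eif2ak3 over the 6 libraries, among 11590 compared, were Arsg, Tldc1 and Sugp2, with Pearson correlations of log2 CPM of 0.99, 0.98 and 0.98. For Ppp1r15a they were Skap2, Rabl2 and Nagk, each at 0.99. Of the other members, the closest to Eif2ak3 was Eif2ak4 at 0.65 and the closest to Ppp1r15a was Eif2s1 at 0.86. With 6 points that share their scaling, these are descriptions only.

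PERK shares the endoplasmic reticulum with the sensors IRE1 and ATF6. The list drawn up around them had 6 tested genes, Ern1, Atf6, Atf6b, Xbp1, Mbtps1 and Mbtps2, and so not sensors alone. Of these, 1 (Mbtps2, 0.02) had a positive and 5 had negative log2 fold changes. The median was -0.09, and 0 passed the test. Ern1, the gene of the sensor IRE1, had 101, 101 and 110 CPM in KO 1, 2 and 3, against 129, 114 and 107 CPM in controls 1, 2 and 3 (log2 fold change -0.16, SE 0.10, edgeR adjusted p = 0.753). Atf6 and Atf6b, sensors cleaved in the Golgi, had log2 fold changes of -0.11 (SE 0.10) and -0.08 (SE 0.08). Xbp1, whose message IRE1 splices, had 276, 278 and 204 CPM in KO 1, 2 and 3, against 375, 300 and 258 CPM in controls 1, 2 and 3 (log2 fold change -0.30, SE 0.17, edgeR adjusted p = 0.744). Its value was -0.14 without control 1, -0.16 without KO 3 and -0.19 with the acinar covariate, and that of Ern1 was -0.08 without control 1. Hspa5, the chaperone that holds PERK inactive, had 1071 to 1350 CPM in KO and 1219 to 1388 CPM in controls (log2 fold change -0.10, SE 0.15, edgeR adjusted p = 0.893).

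Downstream of the kinases, the list of ATF4 and genes it acts on had 3 genes called lower in KO. Of 36 tested, 35 had negative log2 fold changes, and the median of the list was -0.66. An unadjusted p under 0.05 (edgeR) was found in 28, against 7.37% of all genes. At an adjusted p under 0.05 (edgeR) 3 were called lower, where 0.0633% of all genes were. The groups did not overlap in 25, against 13.9% of all genes in either direction. This list, like the others, was written with earlier results of these data known, so the counts describe it and do not test it. Ppp1r15a, a known target of ATF4 with a log2 fold change of -0.04, is a member and was not put in the list. Atf5, a transcription factor, Aars, an alanyl-tRNA synthetase, and Aldh1l2, a mitochondrial folate enzyme, were the 3 called lower. Their log2 fold changes were -1.70 (SE 0.13), -0.80 (SE 0.10) and -1.34 (SE 0.18). Slc7a5, an amino acid transporter, had a value of -0.80 (SE 0.11, edgeR adjusted p = 0.0665). Atf4 itself had 114, 118 and 101 CPM in KO 1, 2 and 3, against 153, 140 and 165 CPM in controls 1, 2 and 3 (log2 fold change -0.46, SE 0.11, edgeR adjusted p = 0.358), with no overlap. Per base of exon, reads of Eif2ak3 relative to Atf4 had a ratio of 0.357, 0.348 and 0.332 in KO 1, 2 and 3, against 0.207, 0.176 and 0.104 in controls 1, 2 and 3, which restates the separate differences of both genes. Ddit3, the gene of CHOP, Trib3, a pseudokinase, and Chac1, which degrades glutathione, had log2 differences of -0.77, -1.51 and -1.51, with adjusted p from edgeR of 0.214, 0.0923 and 0.101, none of which passed. With the ribosomal RNA covariate the list had 0 calls (Atf5 -1.49, edgeR adjusted p = 0.458), with 34 of 36 negative and a median of -0.59. The SE of Atf5 rose from 0.13 to 0.20 in that fit, whose covariate is partly confounded with genotype. The list had 12 calls with the replicate block, 13 with DESeq2, 14 with the acinar covariate and 23 without the filter on low counts. Without KO 1, KO 2, KO 3 or control 2 the calls came to 1 each, and Aars was not called without any 1 of the 6 libraries (edgeR adjusted p from 0.0723 to 0.147). Without control 1, the library with the most acinar RNA, 31 of 37 tested were negative with a median of -0.46. With the acinar covariate 34 of 36 were negative, with a median of -0.49.

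**Figure D5:**
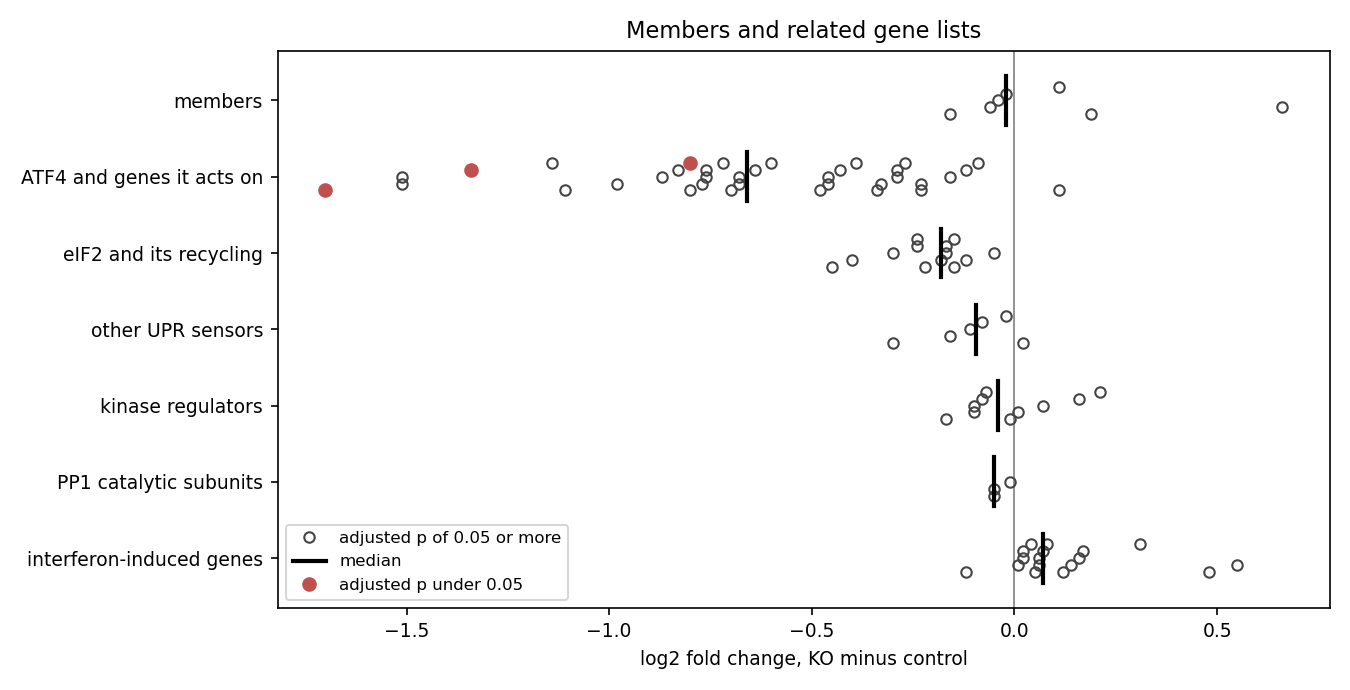
Log2 fold change, KO minus control (horizontal axis), of the 7 members and of the genes in 6 related lists, with 1 point per gene and a bar at each median. Filled points had an edgeR adjusted p under 0.05. Among the members Eif2ak3 stands alone at 0.66, while the list of ATF4 and genes it acts on has its median at -0.66 and holds the 3 filled points.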

How the data were processed

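The authors deposited a table of raw counts per gene, made with STAR 2.7.9 and featureCounts 2.0.0 on GRCm38.p6 (mm10) per the submitters' processing notes. Which annotation release, strand setting and treatment of multi-mapping reads they used is not given in the sources used here. All 3 KO column names carry an ending, of unstated meaning, that control columns lack. Symbols came from a gene name table (55141 of 55401 identifiers), exon lengths from the deposited table, and promoter windows from RefSeq.

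Genotype was tested with edgeR 4.0.16 (R 4.3.3; quasi-likelihood test, TMM, filterByExpr at its minimum count, 10, and minimum total count, 15, two-sided) over 14212 genes, with Benjamini-Hochberg adjustment and a threshold of 0.05. Levels are CPM over TMM-scaled library sizes, and per-library shares of kinase counts have 95% Wilson intervals. Alternatives were DESeq2 1.42.0, limma-voom (limma 3.58.1), RLE normalization, no filter, the replicate number as a block, covariates, and each library left out. The script was tested on simulated data. Libraries were compared pairwise, and none were duplicates (chi-square of at least 14.4 per degree of freedom).

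Members, gene lists and motifs were chosen with earlier results of these data, and for motifs the sequences, known. Named genes were the members, up to 4 genes per list with the smallest p, Atf4, Ddit3, Trib3 and Chac1, and the 3 genes most correlated with Eif2ak3 and with Ppp1r15a. Hspa5, the neighbours of Eif2ak3 and the reads of Pdgfra were added to these after their values were seen. Figures were made with Python 3.11.15 and matplotlib 3.10.9.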

Additional observations from a re-analysis of the deposited data

How the results depend on the processing

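All 14 alternatives kept the direction of Eif2ak3, Eif2ak2, Eif2ak4 and Ppp1r15b. Eif2ak3 passed the threshold in 2 of them, at 0.65 with low counts kept and at 0.82 once the acinar sum was a covariate. With low counts kept its SE fell from 0.20 to 0.12, while that of Eif2ak1 rose from 0.09 to 0.12. With 1 library left out the log2 fold change of Eif2ak3 ran from 0.45 to 0.88. The ribosomal RNA covariate turned the direction of values near 0, to 0.03 for Eif2ak1, 0.06 for Ppp1r15a, 0.06 for Eif2s1, 0.03 for Ppp1cb and -0.01 for Adar. Leaving out 1 library gave ranges across 0 of -0.07 to 0.02 for Eif2ak1, -0.09 to 0.05 for Ppp1r15a, -0.14 to 0.04 for Eif2s1, -0.19 to 0.04 for Ppp1ca, -0.09 to 0.03 for Ppp1cb, -0.11 to 0.04 for Ppp1cc and -0.01 to 0.19 for Adar. The causes were not tested.

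Calls over all genes, 10 in the main test, came to 300 (174 higher and 126 lower) without the filter, 48 (19 and 29) with DESeq2, 44 (14 and 30) with the acinar covariate, 6 (1 and 5) with limma-voom, 0 with the ribosomal RNA covariate (214 at an unadjusted p under 0.05 in edgeR), and 2 to 6 in fits lacking 1 library, which hold fewer samples. Calls in the list of ATF4 and genes it acts on, 3 in the main test, came to 23 without the filter, 13 with DESeq2, 14 with the acinar covariate, 2 with limma-voom and 0 with the ribosomal RNA covariate, and to 1 or 2 with 1 library left out, and the list of eIF2 and its recycling had 1 call (Eif2s2) without the filter. With the replicate block there were 36 calls (11 and 25), 12 of them in the ATF4 list, and Eif2ak3 had 0.69 (edgeR adjusted p = 0.0773). Deviations from the group means had correlations of 0.16, -0.16 and 0.14 in same-numbered pairs of libraries. Other pairs of a KO and a control library had -0.24 to 0.16, so the numbers are taken as names only. Eif2ak4 had the fewest counts of the members, 115 in its shallowest library, with an SE of 0.13. The largest SE, 0.20, was that of Eif2ak3.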
